A study of Mus musculus with 5 samples.

Results

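The expression of 6 genes of the antibody-receptor system was followed through the mouse lung before and after bleomycin injury. They are Fcgr1, Fcgr2b, Fcgr3 and Fcgr4, which encode the 4 mouse Fc gamma receptors, Fcer1g, which encodes the signalling chain that the activating receptors share, and Fcgrt, which encodes the heavy chain of the neonatal Fc receptor FcRn. The genes were chosen by symbol, as 6 of the 28693 features counted, and their unique molecular identifiers (UMIs, 1 per captured transcript) were summed over the cells of each gated cell class in each library. Single-cell 3′ RNA libraries were made from whole-lung cell suspensions of Ms4a3-CreER;R26-tdT mice, 1 library of PBS-treated lung (sham) and 1 library each at 3, 7, 14 and 28 days after bleomycin (labelled P3, P7, P14 and P28). Bleomycin, a DNA-damaging drug that injures the alveolar epithelium, and PBS were given through the trachea. All mice carried the tamoxifen-inducible Cre driven by Ms4a3, a gene of granulocyte and monocyte precursors, with a tdTomato reporter (counted as RFP). The reporter is meant to mark cells that expressed Ms4a3 when tamoxifen was given, and their descendants. The study kept its lines on a mixed C57BL6/129 background and used adults of both sexes, and the number and sex of mice behind each library are not given in the sources used here. Lungs were perfused through the heart, digested with collagenase and freed of red cells, and no sort is named for these libraries.

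Antibodies of the IgG class act on leukocytes through Fc gamma receptors. In mice, Fc gamma RI (Fcgr1, also CD64), RIII (Fcgr3, CD16) and RIV (Fcgr4) are activating receptors that signal through the ITAM motif of the common gamma chain (Fcer1g), on which Src-family kinases and Syk act to start phagocytosis, granule release and cytokine production. Fc gamma RIIb (Fcgr2b, CD32b) carries an inhibitory ITIM motif in its own tail and recruits the lipid phosphatase SHIP1 (Inpp5d), so that the balance of activating and inhibitory receptors sets how strongly a cell answers an immune complex. FcRn is a different kind of receptor: it pairs with beta-2 microglobulin (B2m), binds IgG and albumin in acidic endosomes and returns them to the cell surface, which protects them from breakdown. In the lung, macrophages in the airspace and in the tissue, monocytes and neutrophils are the main bearers of Fc gamma receptors.

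In the GRCm38 assembly (GENCODE vM21), Fcgr1 lies on the minus strand of chromosome 3 (96282909 to 96293969) and Fcgrt on the minus strand of chromosome 7 (45092990 to 45103851). The other 4 genes lie within 275.7 kb of chromosome 1, in the order Fcgr2b (170958617 to 170976547, minus strand), Fcgr4 (171018920 to 171029761, plus strand), Fcgr3 (171051174 to 171064935, minus strand) and Fcer1g (171229572 to 171234365, minus strand). That stretch holds 11 annotated protein-coding genes, these 4 included. Fcgr2b and Fcgr3 are close relatives: their transcripts shared 196 runs of 40 bases. None of these runs fell in the last 500 bases of both, which is the part a 3′ kit reads, although 53 of the Fcgr2b runs near the end were found elsewhere in an Fcgr3 transcript. No other pair of the 6 genes shared a run of 40 bases.

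Promoters are shown for Fcgr1 and Fcgr4, at day 3 at least 2-fold above sham in alveolar macrophages, C1q-expressing macrophages and classical monocytes. They are RefSeq sequences of GRCm38.p6, 240 bases of the window before the annotated start, 5′ to 3′ on the gene's strand, without the 10 bases next to the start. Capitals mark matches to 3 motifs searched on both strands: the interferon-gamma-type element TTCNNNGAA (GAS), the interferon-type element GAAANNGAAA, and the PU.1-type element AGAGGAAG, here present as its reverse complement CTTCCTCT. Neither sequence holds a match that overlaps another.
Fcgr1, chr3:96293980-96294219 (minus strand): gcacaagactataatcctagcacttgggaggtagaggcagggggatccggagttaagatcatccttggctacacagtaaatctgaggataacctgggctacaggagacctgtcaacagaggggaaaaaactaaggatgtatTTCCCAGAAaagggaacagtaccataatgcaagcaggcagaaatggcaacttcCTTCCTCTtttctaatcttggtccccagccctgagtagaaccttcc
Fcgr4, chr1:171018676-171018915 (plus strand): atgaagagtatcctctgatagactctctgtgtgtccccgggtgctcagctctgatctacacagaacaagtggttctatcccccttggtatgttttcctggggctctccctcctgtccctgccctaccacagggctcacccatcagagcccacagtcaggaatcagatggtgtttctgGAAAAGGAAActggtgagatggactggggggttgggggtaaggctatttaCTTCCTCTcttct
The GAS match of Fcgr1 began 109 bases before the start, and that motif was found in 7.18% of the 27025 promoter windows of 250 bases. The GAAANNGAAA match of Fcgr4 began 73 bases before the start, against 3.04% of all windows. The PU.1-type letters, present in 3.64% of windows, were found in Fcgr1 and Fcgr4 and at 1 start of Fcgr3. Fcer1g was also highest at day 3 in alveolar macrophages, C1q-expressing macrophages and classical monocytes, though within 2-fold of sham. No match to the 3 motifs was found in the windows of Fcgr2b, Fcer1g and Fcgrt. These are matches of letters, and binding was not measured.

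The libraries held 8971 to 12688 barcodes, and 44772 of 52800 (84.8%) passed the limits (300 to 8000 genes, 800 to 60000 UMIs, mitochondrial UMIs under 15%). The median depth of the kept cells ran from 9260 UMIs at day 3 to 14254 at day 14, and the day 7 library held no barcode under 4624 UMIs where the others went down to 500 to 502, so shallow cells such as neutrophils were rare in it. Library pairs shared 16 to 31 barcode sequences. Marker gates named 82.1% of the kept cells. Cells past a gate are called here by that gate's name: alveolar macrophages (AMs, 12256 cells), C1q-expressing macrophages (called IMs here, after interstitial macrophages, 6159 cells) and 18 other classes, none of them gated on any of the 6 genes. The gates were not matched to the study's clusters and the IM gate does not leave out cells high for Gpnmb or Spp1. The AM gate does not separate resident AMs from the monocyte-derived AMs that the paper traced after injury, so values of AMs by day can mix them. The labels call the cells immune cells, yet 333 fibroblasts, 280 endothelial and 498 epithelial cells passed gates of their own. AMs numbered 5603 in the sham library and 653 at day 3, whereas IMs numbered 43 in sham and 1985 at day 7, so the sham values of IMs rest on few cells. Levels are summed UMIs per 1000000 UMIs of the class in that library (CPM) with exact 95% Poisson intervals, which cover counting error only. Levels of different genes are not set against each other, since capture at the 3′ end differs between genes. With 1 library per time point there was no replicate of any day, so no test was made between days.

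Between days, a gene counted as different when the levels differed at least 2-fold with at least 50 CPM in either library. In AMs, 3 of the 6 genes were higher at day 3 than in sham and none was lower, where 8.24% of all genes past the 50 CPM limit differed. At days 7, 14 and 28, none of the 5 genes past the limit differed in AMs, against 4.05%, 6.02% and 6.99% of all genes. In IMs, day 3 had 2 genes higher and 1 lower (background 16.9%), days 7 and 14 had 1 lower each (background 7.45% and 13%), and day 28 had 1 higher and 1 lower (background 19.1%). In classical monocytes, day 3 had 3 higher and 1 lower (background 22.9%), day 7 had 2 higher (background 15.6%), and day 14, with 26 such cells, had 2 lower (background 15%). Only 3 classical monocytes were gated at day 28, and their levels are not used. The genes behind the day 3 counts were Fcgr1 and Fcgr4 in all 3 classes and Fcgr2b in AMs and classical monocytes on the higher side, and Fcgrt on the lower side in IMs and classical monocytes.

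**Figure D1:**
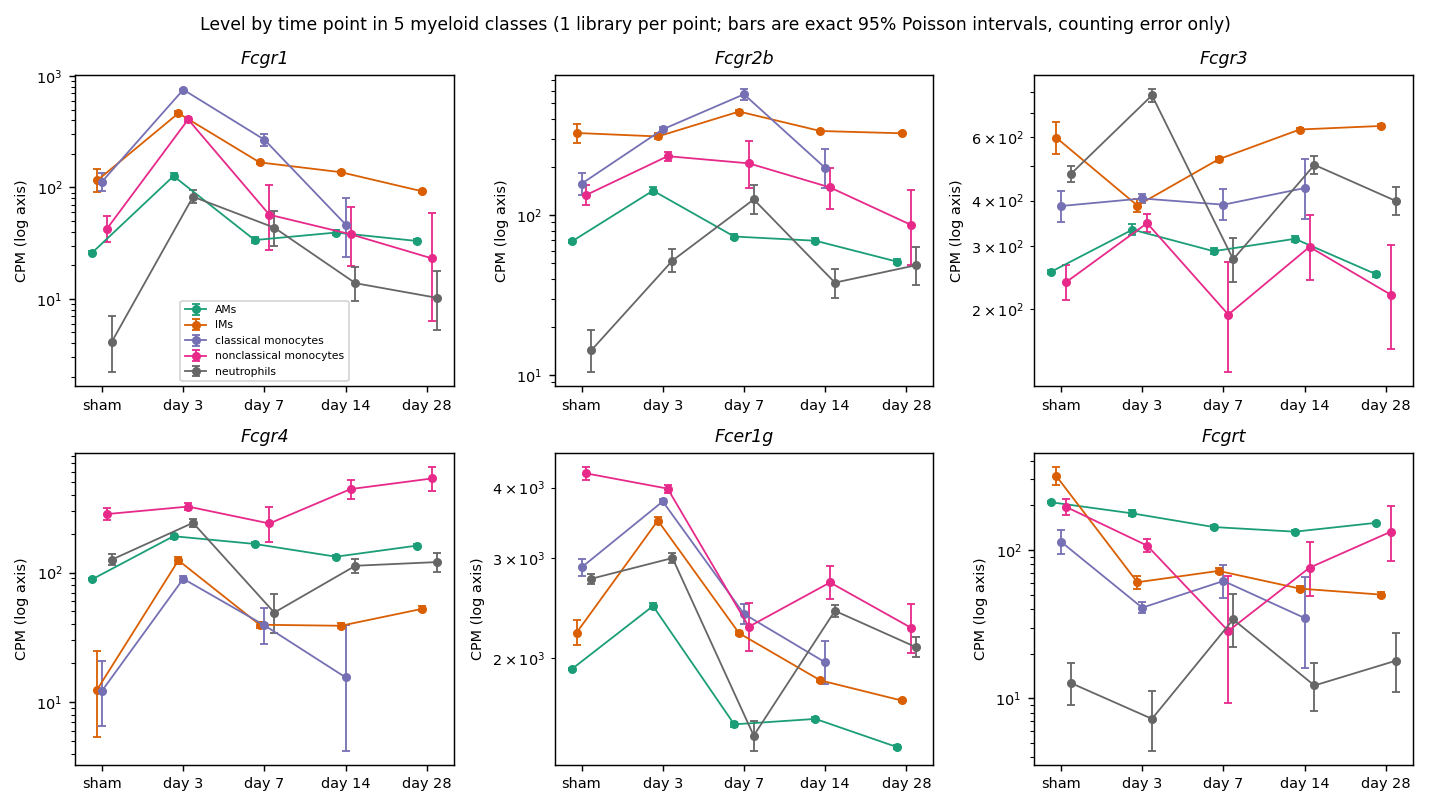
Summed level (CPM, log axis) of each of the 6 genes in each library for 5 myeloid classes, 1 line per class, with exact 95% Poisson intervals as bars. Fcgr1 stood highest at day 3 in AMs, IMs and classical monocytes, and Fcgrt in IMs was 317 CPM in sham and 50.1 to 72.4 CPM on every later day.

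Fcgr1, the high-affinity activating receptor, was highest at day 3 in AMs, IMs, classical and nonclassical monocytes, neutrophils, cDC2s, T cells and B cells. In classical monocytes, the Ly6C-high cells that enter injured tissue from blood, its level was 113, 754, 268 and 46.4 CPM from sham to day 14. The day 3 level was 6.68-fold the sham level (95% interval 5.58 to 8.07), the day 7 level was 2.37-fold, and the day 14 level was 2.43-fold lower. In IMs the levels were 115, 464, 168, 137 and 92.4 CPM from sham to day 28. Day 3 was at 4.01-fold sham (3.19 to 5.13) there, while days 7, 14 and 28 were at 1.45-fold, 1.19-fold and 0.80-fold. In AMs, the phagocytes of the airspace, the levels were 26.0, 126, 33.7, 39.4 and 33.1 CPM. The day 3 AMs had 4.85-fold the sham level (4.54 to 5.19), and the other injured libraries lay between 1.27-fold and 1.51-fold. A UMI of Fcgr1 was found in 34.0% of sham and 62.9% of day 3 AMs, and in 4.82% and 20.9% of them once each cell was thinned to 2000 UMIs.

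Nonclassical monocytes, which patrol vessel walls, had 42.6, 407, 56.9, 38.0 and 23.1 CPM of Fcgr1, with day 3 at 9.56-fold sham (7.34 to 12.7). In cDC2s, the dendritic cells that present antigen to CD4 T cells, the level was 16.6 CPM in sham and 192 CPM in the 20 cells of day 3, which is 11.6-fold (6.94 to 20.1). A UMI was found in 17 of these 20 cells. The cDC2 gate has no step that leaves out cells of monocyte origin with its markers. Their part in the cDC2 values, here and in the comparisons below, was not tested. Neutrophils had 4.13, 82.6, 43.6, 13.8 and 10.2 CPM, and day 3 was 20-fold sham (11.5 to 38.2). T cells, a class that should lack the gene, were also highest at day 3 and lowest in sham, with 1.89, 37.6, 14.5, 7.88 and 9.66 CPM. Their share of cells with a UMI was 1.08% in sham and 9.24% at day 3, at median depths of 5499 and 7940 UMIs, beside 0.92% and 11.2% of neutrophils at 2661 and 3360 UMIs. The shares after thinning were 3.62% of T cells and 7.51% of neutrophils at day 3. The day 3 library also held the most classical monocytes, 1023 cells, and the part that free RNA from them has in the T-cell, B-cell and neutrophil values was not tested.

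Across classes, Fcgr1 was ordered by its median level over libraries as follows. Cells past both the IM and the classical monocyte gates (Ly6c2+ C1q+ cells, 715 of them at day 3 and 83 at day 7) led with 794 CPM at day 3 and 291 CPM at day 7. Their medians, here and for the other genes, rest on those days alone, whereas the other classes named include sham and later libraries. On the same days classical monocytes had 754 and 268 CPM. Classical monocytes followed at 190.3 CPM, IMs at 137, nonclassical monocytes at 42.6, cDC2s at 39.8 and AMs at 33.7. The ranges of neighbours in this order overlapped over the libraries. Within libraries the classes were compared with edgeR's quasi-likelihood test on the summed counts, with the library as a block and p-values adjusted over all genes by Benjamini-Hochberg. The paired libraries are different time points, so these p-values measure how evenly a class difference recurs over the injury course, not over mice of 1 time point. Folds and log2 differences from edgeR carry its TMM scaling, which the CPM levels lack, so a fold can depart from the levels beside it. For Fcer1g in neutrophils against classical monocytes the log2 difference was 0.36, although the mean levels were 2412 and 2758 CPM. Of the 6 genes, 6 differed between AMs and IMs (background 38.9% of genes). Fcgr1 was lower in AMs in 5 of 5 libraries, by 1.99 ± 0.12 (SE) on the log2 scale or 3.96-fold (adjusted p = 5.84e-05), although the ranges over all libraries, 26.0 to 126 CPM and 92.4 to 464 CPM, overlapped.

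IMs and classical monocytes did not pass the test for any of the 6 genes (0 called by edgeR and 0 by DESeq2, 1 at an unadjusted p under 0.05, background 7.57%). Fcgrt did pass with no low-count filter (log2 difference 0.73, adjusted p = 0.0204). For Fcgr1 the difference was -0.11 ± 0.36 on the log2 scale, with IMs higher in 2 of 4 libraries (adjusted p = 0.903), and it changed sign without 1 library. Between nonclassical and classical monocytes 2 of the 6 genes differed (background 8.65%). With no low-count filter, Fcgr2b and Fcgrt passed as well (adjusted p = 0.0391 and 0.0349). Fcgr1 was lower in the nonclassical cells in 4 of 4 libraries, by 1.27 ± 0.27 (adjusted p = 0.0172). That call was lost without the sham library (adjusted p = 0.110) and without day 7 (adjusted p = 0.123). Between neutrophils and classical monocytes 4 of the 6 genes differed (background 35.0%), with Fcgr1 5.77-fold lower in neutrophils in 4 of 4 libraries (log2 difference -2.53 ± 0.43, adjusted p = 0.00182). This Fcgr1 call did not hold under every alternative processing run.

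**Figure D2:**
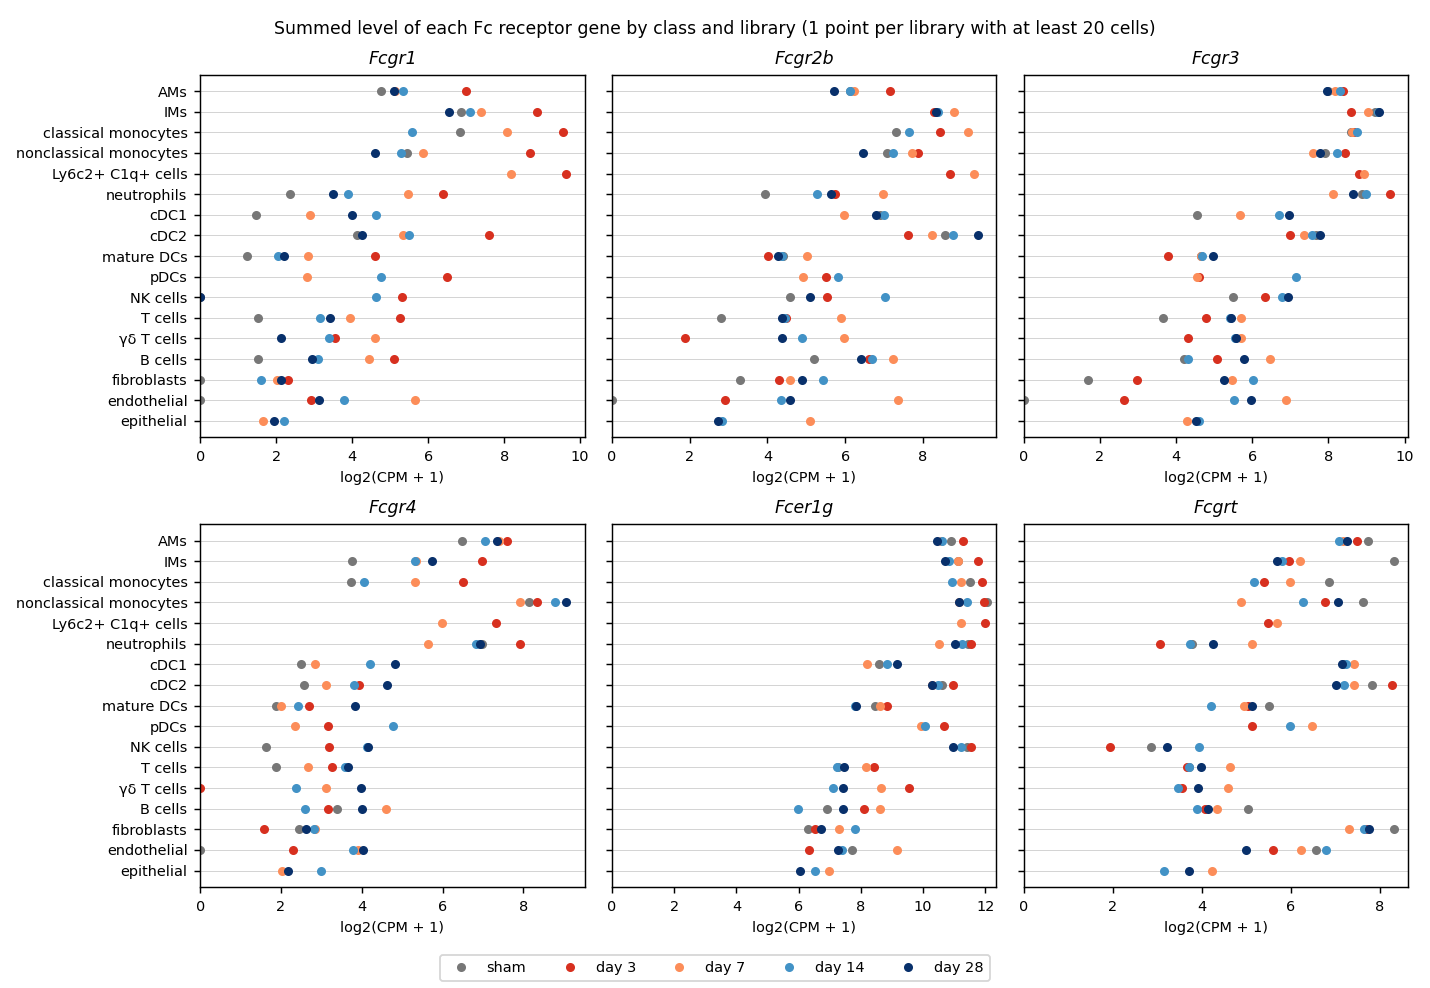
Summed level, as log2(CPM + 1), of the 6 genes in each gated cell class, 1 point per library with at least 20 cells of the class, coloured by library. Fcgr4 had its highest medians over libraries in nonclassical monocytes (323 CPM), AMs (161 CPM) and neutrophils (120 CPM), whereas Fcgrt was led by fibroblasts (203 CPM).

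Fcgr3, the low-affinity activating receptor CD16, stayed within 2-fold of sham in AMs, IMs and classical monocytes. In AMs its levels were 254, 333, 290, 314 and 250.3 CPM from sham to day 28. In IMs they were 598, 388, 520, 629 and 644 CPM, and in classical monocytes 387, 406, 390 and 433 CPM up to day 14. The IM level of day 3, 1.54-fold below sham, was the farthest from sham among these. Neutrophils had 474, 782, 275, 502 and 399 CPM, so that day 3 was 1.65-fold sham. Their lowest level, at day 7, came from 74 cells with a median of 7187 UMIs, against 2197 to 3360 UMIs in the other libraries.

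By median, Fcgr3 was ordered from IMs (598 CPM) through neutrophils (474), Ly6c2+ C1q+ cells (465), classical monocytes (398), AMs (290), nonclassical monocytes (238) and cDC2s (190) to NK cells (94.6). IMs were above AMs in 5 of 5 libraries without overlap, 388 to 644 CPM against 250.3 to 333 CPM, a difference of 2.00-fold (log2 difference for AMs -1.0 ± 0.20, adjusted p = 0.00613). Neutrophils and classical monocytes did not differ past the threshold (log2 difference 0.81 ± 0.37, adjusted p = 0.107), nor did nonclassical and classical monocytes (-0.65 ± 0.19, adjusted p = 0.0665), although the latter ranges, 194 to 347 CPM and 387 to 433 CPM, did not overlap. Without day 7 the neutrophil difference was 1.15 and passed (adjusted p = 0.00944). The nonclassical difference passed without day 3 (-0.81, adjusted p = 0.0241) and with stricter gates (adjusted p = 0.0458). NK cells, in which CD16 triggers killing of antibody-coated cells, had 43.9, 79.9, 109 and 121 CPM in sham and on days 3, 14 and 28. T cells of the same libraries had 11.7, 26.5, 41.6 and 42.7 CPM, below every NK value. Of the 6 genes, 4 differed between NK and T cells (background 18.9%), with Fcgr3 2.54-fold higher in NK cells in 4 of 4 libraries (adjusted p = 5.36e-06). That Fcgr3 call did not hold under every alternative processing run.

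Fcgr4, an activating receptor for the IgG2a and IgG2b subclasses, had its highest median levels in nonclassical monocytes (323 CPM), AMs (161 CPM) and neutrophils (120.3 CPM), followed by Ly6c2+ C1q+ cells (111), IMs (39.5), classical monocytes (27.3) and cDC2s (12.9). Nonclassical monocytes had 283, 323, 239, 441 and 532 CPM from sham to day 28, the last 3 from 29, 48 and 27 cells. Classical monocytes had 12.2, 89.4, 39.1 and 15.5 CPM up to day 14. The ranges over the shared libraries did not overlap, and the nonclassical cells were higher in 4 of 4, by 8.29-fold (log2 difference 3.05 ± 0.41, adjusted p = 0.00216). Without the day 3 library the log2 difference was 3.68, since classical monocytes were highest then. In neutrophils the levels were 126, 242, 49.1, 113 and 120.3 CPM, above classical monocytes in 4 of 4 libraries by 5.35-fold (log2 difference 2.42 ± 0.49, adjusted p = 0.00438). The day 7 level of neutrophils lay below the day 3 level of classical monocytes, so the ranges overlapped, and without day 7 the log2 difference was 3.01.

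In AMs, Fcgr4 was 88.8 CPM in sham and higher in every injured library, with 191, 166, 132 and 161 CPM from day 3 to day 28. These were 2.15-fold (2.05 to 2.25), 1.87-fold, 1.49-fold and 1.82-fold sham, so that only day 3 passed 2-fold. A UMI was seen in 65.2% of sham AMs and 71.4% to 81.3% of injured AMs, against 1.52% to 4.33% of T cells. IMs had 12.5 CPM in sham, from 8 UMIs, and 124, 39.5, 38.8 and 52.4 CPM after injury. Their day 3 level was 9.94-fold sham (5.02 to 23.1) and their day 28 level 4.20-fold (2.13 to 9.73), with wide intervals that the 8 sham UMIs set. Classical monocytes at day 3 had 7.31-fold the sham level (4.26 to 13.8), whereas nonclassical monocytes, which already had 283 CPM in sham, were at 1.14-fold. AMs exceeded IMs in 5 of 5 libraries by 2.97-fold (log2 difference 1.57 ± 0.24, adjusted p = 0.00175). The ranges overlapped through the day 3 IMs, and the call was lost without the library block (adjusted p = 0.0515).

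Fcgr2b, the inhibitory receptor, kept a high level in IMs throughout: 326, 310.2, 444, 336 and 325 CPM from sham to day 28. AMs had 68.5, 142, 73.5, 69.2 and 51.3 CPM. No AM library reached an IM library, and AMs were lower in 5 of 5 by 4.80-fold (log2 difference -2.26 ± 0.26, adjusted p = 0.000595). The day 3 AMs stood out within their class, at 2.08-fold sham (1.96 to 2.20). In classical monocytes the levels were 157, 344, 569 and 197 CPM, so here the peak was at day 7, with 3.62-fold sham (3.05 to 4.33), after 2.19-fold at day 3. The Ly6c2+ C1q+ cells went from 412 CPM at day 3 to 635 CPM at day 7, while their Fcgr1 was lower at day 7. Nonclassical monocytes had 134, 233, 211, 149 and 86.7 CPM, and their difference from classical monocytes missed the threshold (log2 difference -0.69 ± 0.22, adjusted p = 0.0789). It passed with no low-count filter (adjusted p = 0.0391). Neutrophils were 4.33-fold below classical monocytes without overlap (log2 difference -2.11 ± 0.29, adjusted p = 0.000654), with 14.3, 52.0, 125, 37.9 and 48.7 CPM.

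IMs were divided by the summed level of 5 genes of lipid-laden and fibrosis-associated macrophages, Gpnmb, Mmp12, Mfge8, Spp1 and Trem2, at 60 UMIs per 10000. Cells at or above it are called Gpnmb-high and the others Gpnmb-low. The Gpnmb-low IMs had 346 CPM of Fcgr2b in sham and 330, 548, 571 and 524 CPM after injury. The Gpnmb-high IMs had 252, 344, 277 and 301 CPM from day 3 to day 28, below the Gpnmb-low cells on each of those days. Across libraries the ranges overlapped, since the Gpnmb-low level of day 3 lay below the Gpnmb-high level of day 7, and no test of this split was fitted. Over the same days the Gpnmb-high share of IMs went from 118 of 528 cells at day 3 to 876 of 1985, 1260 of 1686 and 1619 of 1917 cells.

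Among dendritic cells, cDC2s carried Fcgr2b at 381, 194, 302, 439 and 684 CPM. The cDC1s, which cross-present antigen to CD8 T cells, had 119, 61.9, 128 and 111 CPM where at least 20 cells were present. Of the 6 genes, 4 differed between these classes (background 16.8%). Fcgr2b was 4.01-fold lower in cDC1s in 4 of 4 libraries without overlap (adjusted p = 0.000126), Fcer1g was 3.12-fold lower (adjusted p = 0.000163), Fcgr3 was 2.78-fold lower (adjusted p = 0.00979) and Fcgr1 was 2.99-fold lower (adjusted p = 0.0198). The calls of Fcgr1 and Fcgr3 were lost without day 7 (adjusted p = 0.189 and 0.0602), and the log2 difference of Fcgr1 was then -1.01. Mature, Ccr7-expressing dendritic cells had the 6 genes lower than cDC2s in 5 of 5 libraries, and all 6 passed the test, in a comparison where 52.3% of genes did. Fcgr2b differed most, 15.2 to 31.1 CPM against 194 to 684 CPM, or 14.5-fold (log2 difference -3.85 ± 0.24, adjusted p = 3.59e-08). Fcgr4, at 4.97 to 23.7 CPM in cDC2s, differed least (1.92-fold), and its call was lost without day 7 (adjusted p = 0.0534).

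B cells use Fc gamma RIIb as their only Fc gamma receptor, to limit antigen-receptor signals. Their Fcgr2b level was 35.6 CPM in sham and 97.3, 149, 103 and 84.0 CPM after injury. T cells had 6.04, 21.3, 58.4, 20.8 and 19.9 CPM. B cells were higher in each of the 5 libraries, by 4.48-fold (log2 difference 2.16 ± 0.16, adjusted p = 3.04e-06), and this was the single call among the 6 genes between B and T cells (background 31.9%), although Fcgr3 passed without day 14 (adjusted p = 0.0102) and Fcgrt without day 7 (0.0420). With doublets removed, Fcgr4 and Fcgrt passed too (adjusted p = 0.0288 and 0.0244). The share of B cells with a UMI went from 13.8% in sham to 24.2% to 41.8% after injury, beside 3.25% and 4.94% to 12.7% of T cells. Relative to sham, B cells were 2.73-fold, 4.17-fold, 2.89-fold and 2.36-fold, and T cells 3.53-fold, 9.67-fold, 3.44-fold and 3.29-fold. The summed level of the 5 IM markers in B cells was 3.13 CPM in sham, with 2 of 5 markers above 0, and 104 to 233 CPM after injury, with 5 of 5 above 0. In T cells the sum was 0.755 CPM in sham and 86.9 to 279 CPM after injury. What part RNA from IMs has in the higher B-cell level was not tested. NK cells, with 23.0, 45.3, 128 and 33.4 CPM in sham and at days 3, 14 and 28, were above T cells in 4 of 4 libraries by 2.67-fold (adjusted p = 0.000985), with IM marker sums of 6.27, 128, 361 and 238 CPM. This Fcgr2b call between NK and T cells did not hold under every alternative processing run.

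The balance of the receptors was read as UMIs of the 3 activating genes together per UMI of Fcgr2b, with exact intervals, and compared only across classes and days. In AMs the ratio was 5.39, 4.57, 6.66, 7.02 and 8.67 (8.36 to 9.00) from sham to day 28. It was lowest at day 3 and above sham from day 7 on, with intervals that did not touch that of sham. In IMs the ratio was 2.22 (1.89 to 2.63), 3.14, 1.64 (1.61 to 1.67), 2.40 and 2.43. Here day 3 was highest and day 7 lowest. Classical monocytes, at 3.26, 3.63, 1.22 and 2.51, also had their highest ratio at day 3 and their lowest at day 7, and the Ly6c2+ C1q+ cells went from 3.39 at day 3 to 1.32 at day 7. Gpnmb-high IMs had 4.09, 2.22, 2.89 and 2.64 from day 3 to day 28, above the 2.90, 1.26, 1.43 and 1.40 of Gpnmb-low IMs on each day.

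In neutrophils the ratio was 42.2 (31.4 to 58.1) in sham and 21.3, 2.93 (2.31 to 3.76), 16.6 and 10.9 after injury. The low value of day 7 came from 74 cells that were deeper than the neutrophils of the other libraries. Their IM marker sum was 399 CPM, beside 9.21 CPM in sham neutrophils and 207 to 429.9 CPM at the other days, and its part in the ratio was not tested. At the other end, cDC2s had ratios of 0.589, 0.698, 0.562 and 0.380 in sham and at days 7, 14 and 28. At day 3 the ratio of the 20 cDC2s was 1.71 (1.25 to 2.34), alongside their higher Fcgr1. The cDC1s had 0.241 in sham and 1.01, 1.13 and 1.49 at days 7, 14 and 28. Nonclassical monocytes had 4.21, 4.61, 2.32, 5.21 and 8.93, the last from 15 Fcgr2b UMIs with an interval of 5.23 to 16.4.

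**Figure D3:**
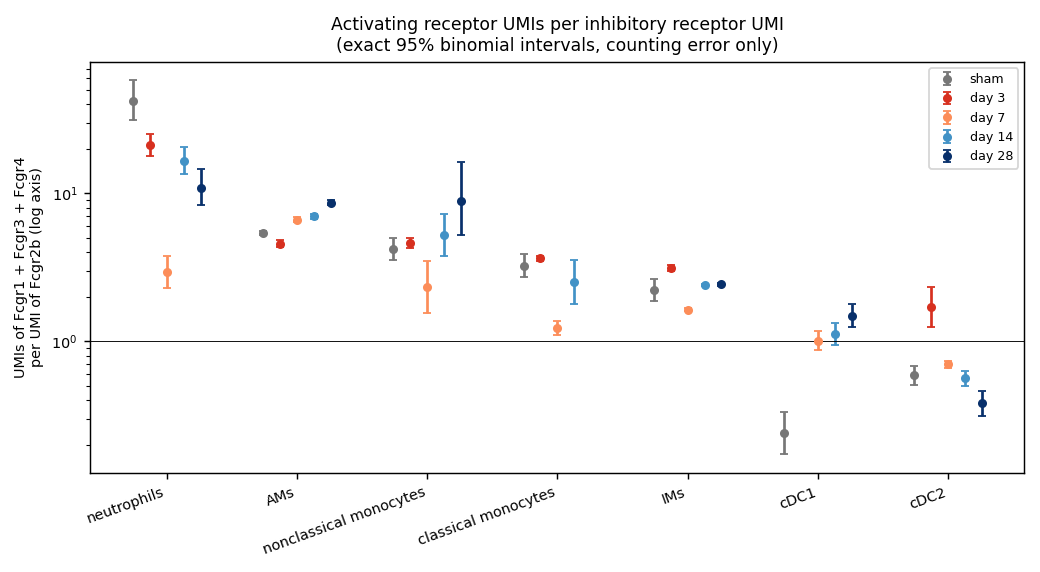
UMIs of Fcgr1, Fcgr3 and Fcgr4 together per UMI of Fcgr2b (log axis) in each library for 7 cell classes, with exact 95% intervals. AMs went from 4.57 at day 3 to 8.67 at day 28, IMs were lowest at day 7 (1.64), and cDC2s lay between 0.380 and 0.698 in every library but day 3.

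Fcer1g, without which the activating receptors do not reach the surface or signal, was detected in at least 99.6% of AMs of every library and stayed within 2-fold of sham in AMs, IMs and classical monocytes. AMs had 1912, 2471, 1528, 1562 and 1394 CPM, and IMs had 2219, 3497, 2213, 1827 and 1684 CPM. Day 3 was highest in both, at 1.29-fold and 1.58-fold sham, and classical monocytes had 2891, 3780, 2393 and 1966 CPM up to day 14. AMs were lower than IMs in 5 of 5 libraries by 1.34-fold (log2 difference -0.42 ± 0.13, adjusted p = 0.0382), with overlapping ranges. That call was lost without day 7 (adjusted p = 0.146), day 14 (0.124) or day 28 (0.106). Classical monocytes did not pass the test against IMs (adjusted p = 0.644), nonclassical monocytes (adjusted p = 0.605) or neutrophils (adjusted p = 0.477).

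By median, Fcer1g ran from Ly6c2+ C1q+ cells (3234 CPM) through nonclassical (2720) and classical monocytes (2642), NK cells (2536), neutrophils (2423), IMs (2213), AMs (1562) and cDC2s (1430) to cDC1s (420), mature dendritic cells (347) and epithelial cells (90.5). The first of these medians rests on days 3 and 7 alone, at 4103 and 2365 CPM, and at day 7 classical monocytes were slightly higher. The classes from the top down to IMs overlapped in range. NK cells had 2693, 2961, 2379 and 1982 CPM in sham and at days 3, 14 and 28, against 154, 344, 148 and 173 CPM in T cells. They were 10.9-fold higher in 4 of 4 libraries without overlap (log2 difference 3.44 ± 0.16, adjusted p = 5.04e-10). Plasmacytoid dendritic cells, the interferon-producing class, had 1613, 974 and 1077 CPM at days 3, 7 and 14. B cells had 118, 276, 389, 61.5 and 171 CPM and did not pass the test against T cells (log2 difference -0.12 ± 0.19, adjusted p = 0.684).

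Fcgrt was highest in sham in AMs, IMs and classical monocytes. IMs had 317 CPM in the 43 sham cells and 60.7, 72.4, 55.0 and 50.1 CPM at days 3, 7, 14 and 28. All injured libraries were lower than sham, by 5.22-fold, 4.37-fold, 5.76-fold and 6.32-fold. Of the sham IMs, 81.4% had a UMI, against 26.9% to 65.1% after injury, and 47.5% against 9.00% to 12.7% after thinning. Within Gpnmb-low IMs the levels were 459 CPM in sham and 75.0, 97.8, 87.2 and 111 CPM after injury, so these cells showed the lower level as well, by 4.12-fold to 6.13-fold. Gpnmb-high IMs had 18.4, 48.2, 47.1 and 43.0 CPM from day 3 on, below the Gpnmb-low cells on each day. Classical monocytes went from 114 CPM in sham to 40.9, 62.0 and 34.8 CPM, which is 2.78-fold lower at day 3 and 3.27-fold lower at day 14, the latter from 9 UMIs. AMs had 210.1, 177, 143, 133 and 153 CPM, at most 1.58-fold below sham.

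At day 3 the FcRn partner B2m, which also pairs with MHC class I, went the other way from Fcgrt. Its level in AMs was 4421 CPM at day 3 against 1259.6 CPM in sham (3.51-fold), in IMs 7653 against 1662 CPM and in classical monocytes 6608 against 1740.0 CPM (3.80-fold). AMs had a higher Fcgrt level than IMs in 4 of 5 libraries, sham being the exception, by 1.90-fold (log2 difference 0.92 ± 0.29, adjusted p = 0.0361). The call was lost without day 3 (adjusted p = 0.128), day 7 (0.0997), day 14 (0.111) or day 28 (0.108). Neutrophils had 12.7, 7.28, 34.1, 12.2 and 17.9 CPM, in the range of T cells (11.6 to 23.6 CPM) but for days 3 and 7. They were 2.86-fold below classical monocytes in 4 of 4 libraries without overlap (log2 difference -1.52 ± 0.35, adjusted p = 0.00884), a call lost without sham (log2 difference -1.10, adjusted p = 0.0678). NK cells had 6.27, 2.86, 14.3 and 8.34 CPM, from 2 to 7 UMIs, and were below T cells in 3 of 4 libraries (log2 difference -1.30 ± 0.40, adjusted p = 0.0323). That call was lost without sham (adjusted p = 0.0737), day 3 (log2 difference -0.62, adjusted p = 0.454) or day 28 (adjusted p = 0.0646).

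Fibroblasts had the highest median level of Fcgrt, with 317, 203, 157, 197 and 215 CPM, followed by cDC2s (225, 309, 170, 145 and 127 CPM), AMs and cDC1s. The ranges of these 4 classes overlapped. Against cDC2s, cDC1s did not pass the test (log2 difference -0.03 ± 0.14, adjusted p = 0.955), so Fcgrt and Fcgr4 were the members uncalled in a comparison where the other 4 were lower. Endothelial cells, in which FcRn keeps IgG in circulation, had 93.3, 47.2, 74.1, 109 and 30.8 CPM, from only 4, 36, 21, 17 and 4 UMIs. Epithelial cells had 17.7, 7.92 and 12.1 CPM at days 7, 14 and 28. Endothelial cells were higher in 3 of 3 libraries without overlap by 5.22-fold (log2 difference 2.38 ± 0.50, adjusted p = 0.00136), or a log2 difference of 1.70 without day 14. In that comparison 5 of the 6 genes passed the test, against 23.0% of all genes. Fcgr2b was 3.95-fold, Fcgr3 3.21-fold and Fcer1g 2.55-fold higher in endothelial cells (adjusted p = 0.00435, 0.00835 and 0.0148). These calls were lost without day 7 (adjusted p = 0.129, 0.205 and 0.0898), a library where 8 of 22 endothelial cells held Fcgr2b and 5 held Fcgr3, and the log2 difference of Fcgr3 was then 1.09 in place of 1.69. Fcgr1 passed too (adjusted p = 0.0190) on 14, 2 and 1 endothelial UMIs at days 7, 14 and 28, missed the threshold by DESeq2 (adjusted p = 0.0699), and fell under the low-count filter without day 7 or day 14. The summed IM markers were 293 to 571 CPM in endothelial and 98.6 to 148 CPM in epithelial cells, with 5 of 5 markers above 0 in endothelial cells, and their part in these values was not tested.

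**Figure D4:**
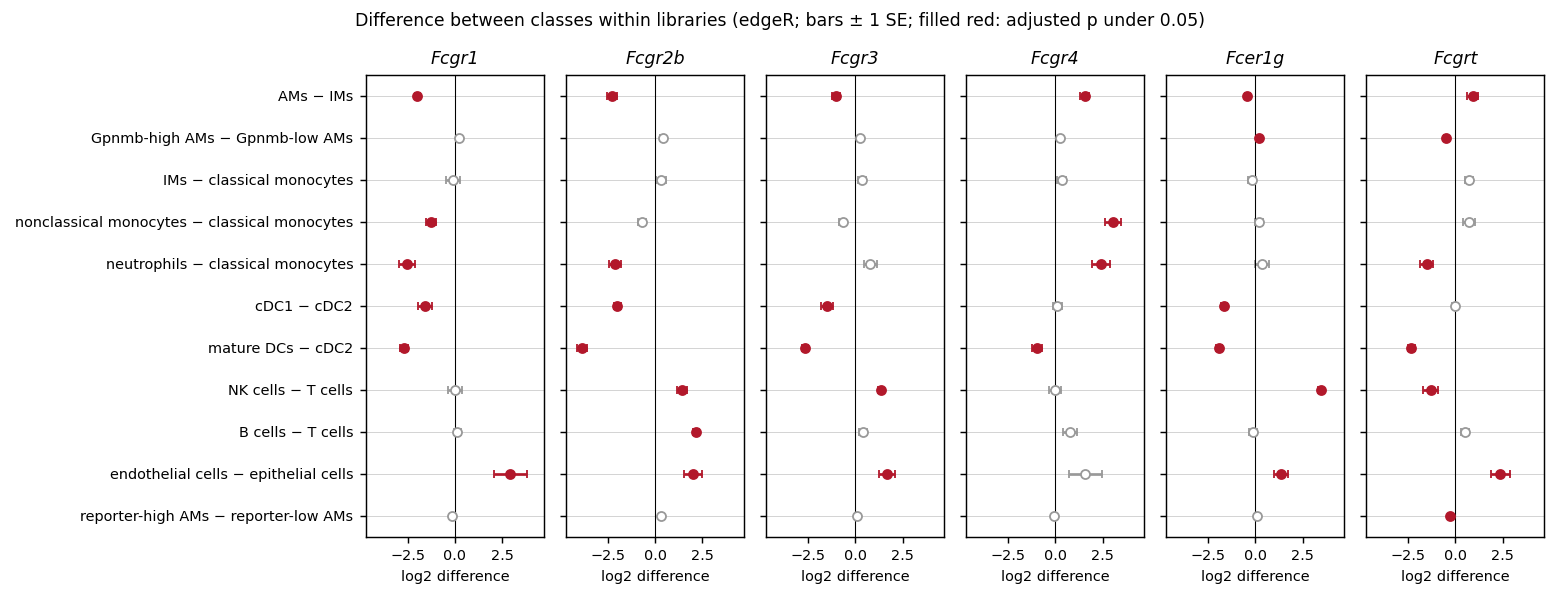
Log2 difference (± SE) of each gene in the 11 comparisons of cell classes within libraries, by edgeR, with filled points for an adjusted p under 0.05. The points of Fcgr4 in nonclassical monocytes (3.05) and Fcer1g in NK cells (3.44) lie farthest to the higher side, and Fcgr2b in mature dendritic cells (-3.85) farthest to the lower side.

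AMs were also divided by the summed level of the same 5 genes (Gpnmb, Mmp12, Mfge8, Spp1 and Trem2) and by the reporter. Gpnmb-high AMs numbered 59 in sham and 1286 at day 28. Between Gpnmb-high and Gpnmb-low AMs 2 of the 6 genes differed (background 6.81%). Fcgrt was lower in the Gpnmb-high cells in 5 of 5 libraries without overlap, 93.7 to 139.6 CPM against 145 to 212 CPM, by 1.39-fold (log2 difference -0.48 ± 0.12, adjusted p = 0.0410). Fcer1g was higher by 1.14-fold in 5 of 5 (log2 difference 0.19 ± 0.05, adjusted p = 0.0422). Both calls were lost without day 3 (adjusted p = 0.118 for Fcgrt and 0.152 for Fcer1g), without day 14 (0.0743 and 0.114) and without day 28 (0.156 and 0.0983), and that of Fcer1g also without day 7 (0.0707). The 4 Fc gamma receptors were higher in the Gpnmb-high cells in 4 of 5 libraries each, by 0.21 to 0.41 on the log2 scale, and none passed the threshold (adjusted p = 0.0518 to 0.182). With stricter gates, Fcgr1, Fcgr2b and Fcgr3 did pass (adjusted p = 0.00653, 0.0162 and 0.00447), as did Fcgr1 without sham (0.0142), Fcgr2b without day 7 (0.0416) and Fcgr3 without day 14 (0.0416).

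Reporter-high AMs (at least 3 RFP UMIs) and reporter-low AMs (0 UMIs) differed in 1 of the 6 genes, where 1.47% of all genes did. The split also followed depth, with a higher median in reporter-high AMs of every library (20904 against 13995.5 UMIs in sham). In sham, 1657 of 5603 AMs were reporter-high, whereas the paper traced only a small part of uninjured lung macrophages to monocytes. The split is therefore not read as descent. Fcgrt was lower in the reporter-high cells in 5 of 5 libraries, by 1.20-fold (log2 difference -0.27 ± 0.05, adjusted p = 0.0188), with overlapping ranges of 127 to 182 CPM and 136 to 242 CPM. The call was lost without sham (adjusted p = 0.0693), day 7 (0.0543) or day 28 (0.0981). Fcgr2b was 1.23-fold higher in 4 of 5 libraries and missed the threshold (adjusted p = 0.0749), but passed without day 28 (adjusted p = 0.0132), with stricter gates (0.0149) and with no low-count filter (4.26e-05). For Fcgr1, Fcgr3, Fcgr4 and Fcer1g the log2 differences lay between -0.13 and 0.10 (adjusted p = 0.477 to 0.836).

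The other genes of the pathway were taken from lists of receptors, adaptors, kinases and phosphatases. Of the ITAM adaptors and Fcer1g partners, 10 of the 12 in the reference were tested in most comparisons. Tyrobp, the DAP12 adaptor that works in parallel to Fcer1g, was lower in AMs than in IMs by 0.57 on the log2 scale, while Lilra5, a receptor that pairs with Fcer1g, was higher by 3.39. In all, 3 of the 10 were higher in AMs and 2 lower, where 38.9% of all genes were called, with a list median of -0.16 against 0.02 for all genes. In neutrophils 9 of 10 were higher than in classical monocytes and 0 lower, where 35.0% of all genes were called, with Cd300ld at 3.92 and Clec4d at 3.38 on the log2 scale. In mature dendritic cells 6 of 10 were lower than in cDC2s and 0 higher, near the 52.3% of all genes called there, and in cDC1s also 6 of 10 were lower and 0 higher, where 16.8% of all genes were called. In NK cells 1 of 10, Tyrobp, passed against T cells, higher by 3.17 (adjusted p = 5.96e-09), where 18.9% of all genes were called.

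Among 20 kinases and adaptors downstream of the receptors, 9 were higher and 2 lower in AMs than in IMs (38.9% of all genes called). The 2 lower ones were Lat2 and Blnk, adaptors that link Syk-family kinases to phospholipase C gamma, by 4.62 and 4.22 on the log2 scale. The same pair was higher in Gpnmb-high than in Gpnmb-low AMs, by 2.25 and 2.10, and in reporter-high than in reporter-low AMs, by 1.20 and 1.02. These are small levels: Blnk averaged 10.1 CPM in Gpnmb-high and 2.43 CPM in Gpnmb-low AMs. Against T cells, Syk was higher by 2.51 in NK cells and by 4.22 in B cells. Of the 8 phosphatases and brakes, Inpp5d, which encodes the SHIP1 that Fc gamma RIIb recruits, was higher by 1.90 and Ptpn6, the phosphatase SHP-1, by 1.40 in B cells than in T cells, with 3 of 8 higher and 2 lower (31.9% of all genes called). In AMs against IMs 0 of 8 were higher and 2 lower, where 38.9% of all genes were called.

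Of the other receptors for antibody and their relatives, 6 of the 8 tested were higher in B than in T cells and 1 was lower, where 31.9% of all genes were called. Fcmr, the IgM receptor, averaged 580.3 CPM in B cells and 1.21 CPM in T cells, and Fcer2a, the low-affinity IgE receptor CD23, averaged 185 CPM and 0.415 CPM. Fcrls, an Fc receptor-like gene of tissue macrophages, was 349.5 CPM in sham IMs and 31.8, 151, 106 and 65.1 CPM after injury, highest in sham as Fcgrt was. In AMs it averaged 0.872 CPM. Pigr, the epithelial carrier of IgA, was lower in endothelial than in epithelial cells by 3.47 on the log2 scale (adjusted p = 0.00125).

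The interferon-induced list is given beside Fcgr1, which interferon gamma is known to induce. The list was chosen with earlier results of these data known, and the part of any interferon in the Fcgr1 levels was not tested. At day 3, 10 of 10 listed genes past the limit in AMs, 11 of 11 in IMs and 11 of 11 in classical monocytes were at least 2-fold above sham, where 8.24%, 16.9% and 22.9% of all genes differed in either direction. Their median log2 ratios were 3.50, 2.72 and 3.41, where the medians of all genes were -0.08, 0.04 and 0.04. In IMs the list medians at days 7, 14 and 28 were -0.75, -0.89 and -2.34, from 6, 5 and 4 genes past the limit. Fcgr1 in IMs was then at 1.45-fold, 1.19-fold and 0.80-fold sham. In classical monocytes the list medians were 0.81 at day 7 (9 genes) and -1.99 at day 14 (4 genes). In AMs 1 listed gene passed the limit on each later day. Of the ITAM adaptors and Fcer1g partners, 4 of 8 were higher in day 3 classical monocytes, namely the C-type lectin receptors Clec4d (4.50-fold), Clec4e (3.07-fold), Clec5a (3.00-fold) and Clec4n (2.86-fold), where 22.9% of all genes differed. The count was also 4 of 8 at day 7, where 15.6% of all genes differed. In day 3 AMs 3 of 10 were higher (8.24% of all genes). In day 3 IMs 0 of 8 were higher and 1 was lower, Clec4n, with 156 CPM against 460.3 CPM in sham.

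Across the 74 sums of a class in a library, the genes most like each member were found by Spearman's rho over 6315 genes, as a description of points that share libraries and classes. Fcgr1 was most like Ms4a6d (0.904), Ms4a6c (0.868) and Lilrb4a (0.811), and Fcgr2b like the same Ms4a6c (0.845) and Ms4a6d (0.843). Fcgr3 was most like Clec4a2 (0.900), AF251705 (0.896) and the growth-factor receptor gene Csf1r (0.890). Fcgr4 was most like AF251705 (0.866) and Msrb1 (0.855), Fcer1g like Tyrobp (0.877) and Arpc1b (0.857), and Fcgrt like Tubb6 (0.816) and Tmed3 (0.783). Among the members, rho was 0.824 for Fcgr3 with Fcgr4, 0.795 for Fcgr3 with Fcer1g and 0.768 for Fcgr1 with Fcgr2b. Fcgrt had 0.0966 to 0.383 with the other 5.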

How the data were processed

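Lung cells of 1 sham and 4 bleomycin-treated libraries were measured with the 10X Chromium Single-Cell 3′ kit. The authors aligned the reads with Cell Ranger 6.0.0 to mm10 and deposited raw UMI counts per gene and barcode. The limits on barcodes were those the study states (genes, 300 to 8000; UMIs, 800 to 60000; mitochondrial share, below 15%). Cells were assigned by marker gates whose thresholds were set after looking at the marker levels. A cell past several gates took the class that led the next by 4-fold over its gate, cells past exactly the IM and classical monocyte gates were kept as Ly6c2+ C1q+ cells, and 3023 others stayed unnamed. Doublets, which Scrublet (scanpy 1.11.5) marked in 574 to 1043 cells per library, stayed in the main values.

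Sums of UMIs were made for each class with 20 or more cells in a library. Levels have exact 95% Poisson intervals and ratios to sham exact binomial ones. Class differences were tested in edgeR 4.0.16 (R 4.3.3) with TMM scaling, filterByExpr, the library as a block and at least 3 libraries, and a call is an adjusted p under 0.05. The script was tested on simulated data. Shares of cells with a UMI were also taken after thinning each cell to 2000 UMIs. Likeness was ranked on genes with at least 20 CPM, naming the 3 most alike. The list genes with the largest called differences, at most 4 per list and comparison, could be named, and those in the text were selected from them after their values were seen. The alternatives were DESeq2 1.42.0, RLE scaling, no low-count filter, no block, leaving out each library, stricter gates, doublets removed, 10% mitochondrial UMIs, the day 7 floor of 4624 UMIs, 1 fit over all classes, 20 CPM in place of 50, and means of single-cell CPM. The 6 genes, the gene lists and the comparisons were chosen with earlier results of these data known.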

Additional observations from a re-analysis of the deposited data

How the results depend on the processing

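Of the 66 values of the 6 genes in the class comparisons 35 passed the threshold, 16 of these passed under every alternative run, and none of the 35 changed sign. Over all 66 values and their 864 alternatives, 745 kept direction and side of the threshold. DESeq2 lost 3 of the 35 calls, RLE scaling 1, no low-count filter 0, removal of doublets 4 of 34, stricter gates 5 of 34, 10% mitochondrial UMIs 1 of 30, the day 7 UMI floor 2 of 30, no library block 16 of 34 and 1 fit over all classes 10 of 35. Of 330 alternative values of the levels by day, 292 moved by less than their counting interval and 38 by more. Of 444 shares of cells with a UMI, 368 moved by more than their counting interval when cells were thinned to 2000 UMIs, so these shares depend on depth. Uncalled values passed the threshold in 22 alternatives. The comparison of endothelial and epithelial cells was not run at 10% mitochondrial UMIs or at the day 7 floor, since under 3 libraries were left. No paired analysis was possible because each group holds 1 library, beyond the library block in the class comparisons. The cause of the changes below was not tested.

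Counts of genes past the threshold, in the order AMs against IMs, Gpnmb-high AMs, IMs against classical monocytes, nonclassical monocytes, neutrophils, cDC1s, mature dendritic cells, NK cells, B cells, endothelial cells and reporter-high AMs, were 5367, 861, 823, 719, 3247, 1602, 5257, 2011, 3548, 2315 and 176. Without the library block they were 3160 for AMs against IMs, 1 for Gpnmb-high, 124 for IMs against classical monocytes, 225 for nonclassical monocytes, 639 for cDC1s, 685 for NK cells, 1881 for B cells and 1 for reporter-high. With no low-count filter they were 1332 for Gpnmb-high, 1633 for IMs against classical monocytes, 1286 for nonclassical monocytes and 597 for reporter-high. Stricter gates gave 1658 for Gpnmb-high and 404 for reporter-high, and removal of doublets gave 113 for reporter-high. A single fit over all classes gave 94 for Gpnmb-high, 1821 for IMs against classical monocytes, 1410 for nonclassical monocytes, 5944 for neutrophils, 4667 for endothelial cells and 1 for reporter-high. The day 7 UMI floor gave 1653 for neutrophils and 901 for NK cells. Leaving out 1 library gave 3573 to 5487 for AMs against IMs, 180 to 1188 for Gpnmb-high, 148 to 638 for IMs against classical monocytes, 241 to 779 for nonclassical monocytes, 1563 to 4243 for neutrophils, 870 to 1504 for cDC1s, 1243 to 1795 for NK cells and 117 to 168 for reporter-high. With 20 CPM in place of 50, the genes that differed 2-fold from sham numbered 497, 224, 377 and 432 in AMs (284, 136, 209 and 240 at 50 CPM), 1148, 550, 876 and 1197 in IMs (580, 232, 415 and 610) and 1289, 1014 and 1222 in classical monocytes (757, 503 and 510).

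Changes of sign were found among uncalled values. For NK against T cells, the log2 difference of Fcgr1 was -0.26 by DESeq2, -0.0080 with no filter, -0.21 without doublets, -0.083 in 1 fit and -0.25 to 0.26 leaving out 1 library, and that of Fcgr4 was 0.033 by DESeq2, 0.0051 with RLE, 0.40 with stricter gates, 0.16 without doublets, 0.29 at the UMI floor and -0.13 to 0.24 leaving out 1 library. For cDC1s, Fcgr4 gave -0.89 with stricter gates, -0.051 without doublets and -0.053 to 0.33 leaving out 1 library, and Fcgrt gave 0.056 and -0.10 to 0.095. For B cells, Fcer1g gave 0.039 without the block, 0.059 with stricter gates and -0.33 to 0.058, and Fcgr1 gave -0.077 to 0.25. Fcgr1 gave -0.54 to 0.18 in IMs against classical monocytes and 0.13 in reporter-high AMs with stricter gates, Fcgr4 gave -0.16 to 0.013 in reporter-high AMs, and Fcer1g gave -0.041 in neutrophils at the UMI floor.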

Other observations

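The rarer lymphoid and dendritic classes, present with 20 cells or more in some libraries only, were not part of the comparisons. In gamma delta T cells, Fcer1g was 749 CPM at day 3 (95% interval 664 to 842, 40 cells) and 397 CPM at day 7 (350.1 to 449, 84 cells), against 138 CPM at day 14 (382 cells) and 170.1 CPM at day 28 (465 cells). T cells of the same libraries had 344, 283, 148 and 173 CPM, so the gamma delta cells were above T cells at days 3 and 7 and not at days 14 and 28. At day 3 the other receptors were low in the gamma delta cells, with 10.7 CPM of Fcgr1 (4 UMIs) beside 37.6 CPM in T cells, and 2.67 CPM of Fcgr2b (1 UMI) beside 21.3 CPM.

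In plasmacytoid dendritic cells, Fcgr1 was 88.6 CPM at day 3, with its 123 UMIs in 14 of 117 cells and a mean of single-cell CPM of 45.2, so that few cells carried the level. It was 6.08 CPM at day 7 (5 of 114 cells) and 26.3 CPM at day 14, from 8 UMIs in 1 of 26 cells, whereas Fcgrt was 33.9 CPM (24.9 to 45.0), 88.1 CPM (70.6 to 109) and 62.4 CPM (37.5 to 97.4). With 1 library per day, none of these differences was tested between days.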
